A study of Homo sapiens with 16 samples.

Results

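The interferon-stimulated genes described here are 35 human genes that cells transcribe after interferon binds its receptors. They were chosen by name, with earlier results of these data known. Every one was looked up in both deposited expression tables, where genes are listed by Entrez identifier. The first experiment had a value for 30 of them among 13559 genes, and the second for 32 among 14024 genes. *IFI44L* and *BST2* had a value only in the second experiment, and *OAS2*, *IFI27* and *IRF7* had no row in either table, so nothing is given for those 3. RNA was sequenced from LN229, an established cell line that came from a human glioblastoma (GBM), a malignant brain tumor. In experiment 1, the regular condition, in which cells had full medium, was set beside the ischemic condition, in which glucose, glutamine, serum and oxygen were low, with nothing added to either. In experiment 2, cells in each condition received DMSO (the solvent control), VX745 (an inhibitor of the stress-activated kinase p38α) or MK25 (an inhibitor of MK2, a kinase that p38 activates). These 8 groups held 2 libraries each, 16 in all, all from 1 cell line, and the labels name no introduced gene. The labels name neither doses nor times, and they do not say whether the libraries of a group came from separate cultures, so the p-values below measure the spread between libraries, which may be technical.

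Type I and type III interferons bind receptors on the cell surface and switch on the kinases JAK1 and TYK2. These phosphorylate STAT proteins, among them STAT2, which join IRF9 to form the factor ISGF3 and bind a promoter element named the interferon-stimulated response element (ISRE). Many of the induced genes encode proteins that recognise or destroy viral RNA, stop its translation or block viral entry, and others encode parts of the signalling chain itself. Some of the same genes are also driven by IRF1, IRF3, NF-κB or p53 without interferon.

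Between 20122017 and 37562668 reads per library lay on the listed genes. The most abundant 10 genes took between 4.23% and 6.45% of them. No member was at the floor of detection, taken as 3 reads or fewer in both libraries of a group, and the lowest single library was *IFIT1* with 8 reads. The median over the libraries of a table was at least 30.5 reads for every member, above the limit of 10 reads set for a poorly read gene. Levels are deposited log2 CPM, the logarithm of a gene's reads scaled to a common library size, each with an offset of between 1.49 and 2.62 reads, so differences of the least read members are understated. All 8 glioma and glial markers looked up had a value in both experiments, but their levels were not stable. In the untreated ischemic condition *VIM* (log2 difference 1.38) and *EGFR* (1.17) were called higher. *SOX2* (-3.11), *OLIG2* (-1.68) and *NES* (-1.36) were called lower. With DMSO, *VIM* (1.27) was called higher and *SOX2* (-2.23) and *NES* (-1.06) lower. The remaining glioma and glial markers were not called in these 2 comparisons. Between conditions within an inhibitor, *SOX2* was called lower (-2.35 with VX745 and -1.79 with MK25), *VIM* higher with VX745 (1.00) and *GFAP* lower with MK25 (-1.32). Under ischemia *OLIG2* was called higher with VX745 than with DMSO (0.64) and lower with MK25 than with VX745 (-1.08). Of 10 interferon genes only *IFNE* had a value, at between -0.77 and 0.92 log2 CPM. None of 6 endothelial markers, 3 of 6 epithelial markers and 2 of 8 leukocyte markers (*CD68* and *ITGAM*) had a row, and *PTPRC*, the defining leukocyte gene, had none. The 2 leukocyte markers summed to between 22.4 and 39.0 CPM in regular libraries and between 36.8 and 65.9 CPM in ischemic ones, nearly all of it *CD68*. *ITGAM* was called higher in all 4 comparisons of the conditions (log2 differences 1.11, 1.36, 1.65 and 3.03) and with MK25 under ischemia (1.33). It was poorly read, with a median of 9 reads in experiment 1, below the limit of 10. Regular untreated libraries held 4 and 7 of its reads, and regular MK25 libraries 5 and 9. The 3 epithelial markers summed to between 139 and 145.5 CPM in ischemic MK25 libraries and to between 220.7 and 229.8 CPM in ischemic DMSO libraries. The part of these markers in the results was not tested.

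The promoters of 8 members are shown because these genes are among those that differed most between groups and because some hold the letters of an ISRE and some do not. RefSeq sequences of assembly GRCh38.p14 were matched for 31 of the 35 members, with none for *IFIT2*, *IFITM2*, *OAS2* or *IRF7*. Each line gives the 160 bases before the start site on the gene's own strand, 5′ to 3′, in lower case, with capitals for letters that match the ISRE pattern on either strand, GAAA followed by 2 bases of any kind and GAAA again. The stretch of *IFIT1* is chr10:89392463-89392622 (plus strand), that of *IFIT3* chr10:89327837-89327996 (plus), that of *ISG15* chr1:1013337-1013496 (plus) and that of *OAS3* chr12:112938314-112938473 (plus). The stretch of *DDX60* is chr4:168318753-168318912 (minus strand), that of *ISG20* chr15:88638856-88639015 (plus), that of *IRF9* chr14:24161105-24161264 (plus) and that of *TRIM25* chr17:56914050-56914209 (minus).
IFIT1: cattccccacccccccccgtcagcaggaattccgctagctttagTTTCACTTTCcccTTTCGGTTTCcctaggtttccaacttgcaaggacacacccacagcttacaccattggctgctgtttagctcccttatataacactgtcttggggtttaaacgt
IFIT3: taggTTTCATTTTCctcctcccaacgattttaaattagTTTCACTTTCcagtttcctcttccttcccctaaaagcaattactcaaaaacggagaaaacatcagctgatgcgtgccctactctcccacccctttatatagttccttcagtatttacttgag
ISG15: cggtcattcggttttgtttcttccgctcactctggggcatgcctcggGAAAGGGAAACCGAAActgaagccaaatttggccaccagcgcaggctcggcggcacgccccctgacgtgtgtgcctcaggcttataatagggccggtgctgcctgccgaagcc
OAS3: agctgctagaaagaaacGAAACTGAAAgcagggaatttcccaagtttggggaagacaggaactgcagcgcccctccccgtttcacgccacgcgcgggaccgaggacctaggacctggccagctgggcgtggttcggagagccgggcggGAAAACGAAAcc
DDX60: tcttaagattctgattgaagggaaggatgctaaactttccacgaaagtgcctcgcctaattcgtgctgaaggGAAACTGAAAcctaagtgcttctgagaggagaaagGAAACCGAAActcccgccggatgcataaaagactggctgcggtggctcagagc
ISG20: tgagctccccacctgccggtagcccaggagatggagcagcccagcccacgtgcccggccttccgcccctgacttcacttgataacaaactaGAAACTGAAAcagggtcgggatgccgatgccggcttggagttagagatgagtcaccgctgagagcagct
IRF9: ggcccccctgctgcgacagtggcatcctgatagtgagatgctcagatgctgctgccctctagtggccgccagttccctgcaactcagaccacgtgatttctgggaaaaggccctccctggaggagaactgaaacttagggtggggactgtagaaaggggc
TRIM25: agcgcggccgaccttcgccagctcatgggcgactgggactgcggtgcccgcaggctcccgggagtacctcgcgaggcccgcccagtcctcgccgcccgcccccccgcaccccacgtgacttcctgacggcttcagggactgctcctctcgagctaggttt

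*IFIT1*, *IFIT3*, *OAS3*, *DDX60* and *ISG15* each hold 2 matches in this stretch, which overlap in *ISG15*, and *ISG20* holds 1. *IRF9* and *TRIM25* hold none. In the window from 250 bases before to 50 bases after the start site, 19 of the 31 matched members (61.3%) held the ISRE pattern, against 3.65% of 27305 promoters and 2.72% of the promoters of genes listed in experiment 2. The pattern TTCNNNGAA, to which STAT dimers bind (the gamma-activated site, GAS), was found in 9 of the 31 (29.0%) and in 7.88% of all promoters. A match is a run of letters and was not tested as a binding site. Of the 5 members called lower in the ischemic condition in either experiment, *IFIT1*, *IFIT3*, *ISG15* and *OAS3* hold the ISRE pattern in this window and *OAS1* does not. Of the 5 called higher, *DDX60* and *ISG20* hold it and *IRF9*, *SAMD9L* and *TRIM25* do not.

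The first comparison asked how the ischemic condition changed these genes with nothing added. A member was called at an adjusted p under 0.05 with a fold change of at least 2. In experiment 1, 5 of the 30 members were higher (11.3% of all genes were) and 4 were lower (9.1% were). The higher ones were *ISG20*, *TRIM25*, *DDX60*, *SAMD9L* and *IRF9*, and the lower ones *IFIT1*, *OAS1*, *ISG15* and *OAS3*. With no threshold on size, 12 were higher and 11 lower, beside 35.2% and 35.2% of all genes. The member median was 0.07 on the log2 scale, and that of all genes was -0.01. The members thus moved in both directions, and both counts were near the background. RNA was taken in bulk, so fewer cells with a transcript and less transcript per cell cannot be told apart. With each library scaled to its total reads, the median of all genes was -0.18 and that of the members -0.10, the opposite sign to the median above, and 4 members were then higher and 5 lower. Of all 13559 genes, 1193 were then called higher and 1758 lower, beside 1529 and 1234 without this scaling.

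In experiment 2 with DMSO, 3 of the 32 members were higher (9.03% of all genes) and 2 were lower (8.11%). *ISG20*, *TRIM25* and *DDX60* were higher, and *IFIT1* and *IFIT3* were lower. At any size, 12 were higher and 10 lower, beside 34.4% and 35.2% of all genes, and the member median was -0.03. With scaling to total reads the median of all genes was -0.23 and that of the members -0.26, and 2 members were then higher and 4 lower. Of all 14024 genes, 880 were then called higher and 1800 lower, beside 1267 and 1138 without this scaling. The experiments share no library. *IFIT1*, *ISG20*, *TRIM25* and *DDX60* were called in the same direction in both, and none was called in opposite directions. Without regular DMSO replicate 1 only 3 members were called, since *IFIT3* (-0.98) and *DDX60* (0.98) then changed by less than 2-fold. *IFIT3* was also not called without ischemic DMSO replicate 1 (-0.95).

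**Figure D1:**
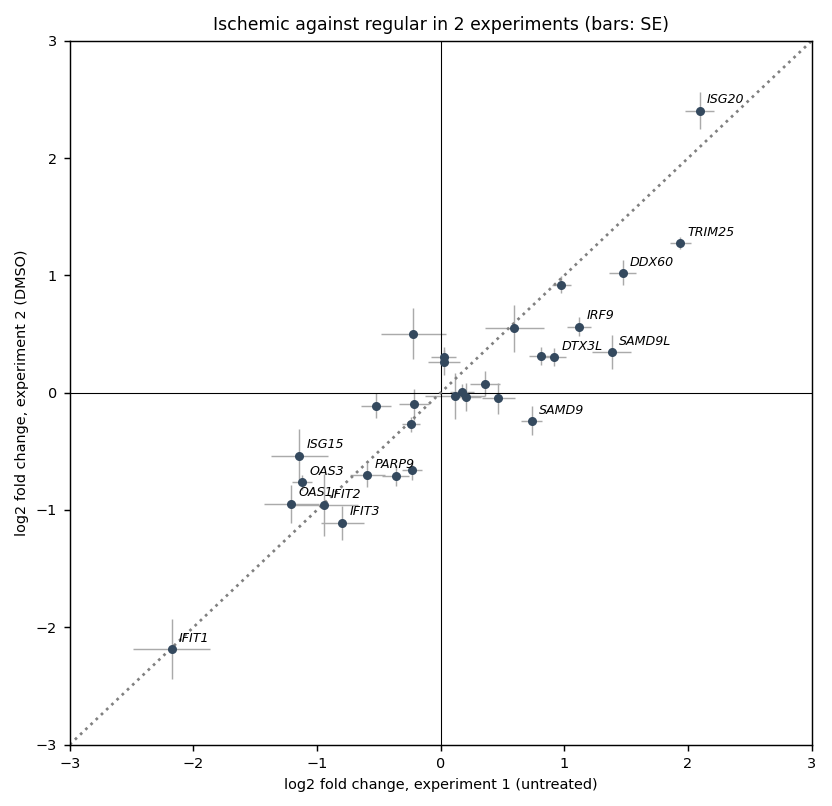
Log2 fold change of ischemic over regular libraries for the 30 members with a value in both experiments, untreated on the horizontal axis and with DMSO on the vertical axis. Points are fitted values, bars are 1 SE on each side, and the dotted line marks equal values. *IFIT1* lies near -2.18 on both axes and *ISG20* above 2 on both, whereas *SAMD9* lies at 0.73 on one axis and -0.24 on the other.

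Among the effectors that act on RNA and translation, the IFIT genes were lower. They lie together on chromosome 10 and encode proteins of which the best known, IFIT1, binds RNA lacking the host's cap methylation and keeps it from being translated. *IFIT1* was at 1.48 and 1.18 log2 CPM in the regular libraries of experiment 1 and at -1.17 and -0.52 in the ischemic ones. In experiment 2 with DMSO it was at 1.14 and 1.2 in regular and -1.33 and -0.70 in ischemic libraries, where it had 8 and 16 reads. The groups did not overlap in either experiment. With 2 libraries in each group this also happens in genes that hardly differ, such as *CD44* untreated (0.03, adjusted p = 0.67 by limma). Its share over all genes was not counted, so non-overlap is given here and below as a description only. The log2 fold changes of *IFIT1*, here and below ± SE from limma with n = 2 libraries in each group, were -2.18 ± 0.31 (adjusted p = 5.1e-05) untreated and -2.19 ± 0.26 (adjusted p = 6.7e-07) with DMSO. *IFIT3*, which binds and stabilises IFIT1, was at 2.29 and 2.52 in regular and 1.59 and 1.63 in ischemic untreated libraries, a difference of -0.80 ± 0.17 (adjusted p = 0.0013). With DMSO it was at 2.77 and 2.51 in regular and 1.37 and 1.69 in ischemic libraries, a difference of -1.11 ± 0.15 (adjusted p = 2.7e-06). *IFIT2*, a partner of both, was at 1.13 and 1.35 in regular and 0.61 and -0.03 in ischemic libraries without treatment, and at 1.5 and 0.82 in regular and -0.18 and 0.59 in ischemic libraries with DMSO. Its libraries did not overlap either, and the difference of -0.95 ± 0.28 (adjusted p = 0.0083) untreated and -0.96 ± 0.26 (adjusted p = 0.0037) with DMSO was below the 2-fold threshold. *IFIT5* differed by -0.37 ± 0.11 (adjusted p = 0.0098) untreated and -0.71 ± 0.09 (adjusted p = 2.5e-06) with DMSO.

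The OAS enzymes make oligoadenylates when they meet double-stranded RNA, a signal that leads to RNA decay in the cell. *OAS1* was at 2.02 and 1.64 log2 CPM in regular and 0.61 and 0.63 in ischemic untreated libraries, a difference of -1.21 ± 0.22 (adjusted p = 0.00037). Its DMSO libraries were at 2.42 and 2.37 in regular and 1.40 and 1.5 in ischemic libraries, a difference of -0.95 ± 0.16 (adjusted p = 5.5e-05). *OAS3* was at 5.89 and 6.01 in regular and 4.79 and 4.88 in ischemic libraries without treatment, a difference of -1.12 ± 0.08 (adjusted p = 1.4e-07), and at 6.01 and 5.95 in regular and 5.18 and 5.24 in ischemic libraries with DMSO, a difference of -0.77 ± 0.06 (adjusted p = 1.1e-08). Both were lower in every ischemic library than in any regular one of the same experiment, but they passed the 2-fold threshold only in experiment 1.

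*ISG20*, an exonuclease that degrades single-stranded RNA, moved the other way and was the member that rose most. It was at 2.21 and 2.24 log2 CPM in regular and 4.32 and 4.31 in ischemic untreated libraries, and at 2.28 and 2.34 in regular and 4.71 and 4.71 in ischemic libraries with DMSO. The log2 fold changes were 2.09 ± 0.12 (adjusted p = 1.5e-08) untreated and 2.40 ± 0.16 (adjusted p = 3.4e-10) with DMSO, with no overlap between groups. *SAMD9* and *SAMD9L* are neighbours on chromosome 7 and encode antiviral proteins that restrain translation. *SAMD9L* was at 3.14 and 3.30 in regular and 4.88 and 4.33 in ischemic libraries without treatment, a difference of 1.38 ± 0.16 (adjusted p = 5.8e-06), and at 3.41 and 3.67 in regular and 3.97 and 3.79 in ischemic libraries with DMSO, a difference of 0.34 ± 0.14 (adjusted p = 0.042). *SAMD9* differed by 0.73 ± 0.09 (adjusted p = 1.1e-05) in experiment 1 and by -0.24 ± 0.12 (adjusted p = 0.092) in experiment 2, and the difference between experiments was not tested. *ADAR*, which edits adenosine to inosine in double-stranded RNA, differed by -0.24 and -0.27. *MX1*, a GTPase that traps viral nucleocapsids, differed by -0.22 ± 0.26 (adjusted p = 0.47) untreated and 0.50 ± 0.22 (adjusted p = 0.047) with DMSO.

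The 4 RNA sensors and helpers were higher or did not pass the test. *TRIM25*, a ubiquitin ligase that helps to activate the sensor RIG-I, was at 6.77 and 6.82 log2 CPM in regular and 8.87 and 8.59 in ischemic untreated libraries. With DMSO it was at 7.07 and 7.08 in regular and 8.34 and 8.36 in ischemic libraries. The log2 fold changes were 1.94 ± 0.09 (adjusted p = 1.5e-09) untreated and 1.28 ± 0.05 (adjusted p = 8.4e-13) with DMSO, and no library overlapped. *DDX60*, a helicase that promotes RIG-I signalling, was at 2.95 and 2.95 in regular and 4.46 and 4.39 in ischemic libraries without treatment (1.47 ± 0.11, adjusted p = 1.5e-07) and at 2.66 and 2.75 in regular and 3.73 and 3.71 in ischemic libraries with DMSO (1.02 ± 0.11, adjusted p = 1.9e-07). With total-read scaling its difference with DMSO was 0.80, below the 2-fold threshold. The sensors themselves stayed below the 2-fold threshold. *RIGI*, which encodes RIG-I and detects short RNA with a free triphosphate end, was at 3.14 and 3.36 in regular and 3.58 and 3.64 in ischemic libraries without treatment (0.36 ± 0.12, adjusted p = 0.022). In DMSO libraries it was at 3.51 and 3.52 in regular and 3.62 and 3.55 in ischemic libraries (0.07 ± 0.11, adjusted p = 0.54). *IFIH1*, which encodes MDA5 and detects long double-stranded RNA, was at 2.81 and 2.74 in regular and 3.19 and 3.29 in ischemic libraries without treatment (0.47 ± 0.13, adjusted p = 0.0069), and at 2.99 and 3.16 in regular and 3.07 and 2.99 in ischemic libraries with DMSO (-0.05 ± 0.13, adjusted p = 0.77). Its groups overlapped in the second experiment only.

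The transcription factors differed among themselves. *IRF9*, the DNA-binding part of ISGF3, rose from 4.02 and 3.93 to 5.02 and 5.16 log2 CPM without treatment (1.12 ± 0.10, adjusted p = 5.5e-07), and was 0.95 with total-read scaling, below the 2-fold threshold. With DMSO it was at 4.05 and 4.10 in regular and 4.65 and 4.62 in ischemic libraries (0.56 ± 0.08, adjusted p = 6.0e-06). *STAT2*, its partner, was lower, at 5.28 and 5.36 in regular and 5.07 and 5.10 in ischemic untreated libraries (-0.23 ± 0.08, adjusted p = 0.023). The DMSO libraries were at 5.42 and 5.49 in regular and 4.82 and 4.77 in ischemic libraries (-0.66 ± 0.08, adjusted p = 1.9e-06). *IRF9* and *STAT2* thus went in opposite directions in both experiments, each at an adjusted p under 0.05. *IRF1*, a factor that interferon-γ induces, was at 4.28 and 4.30 in regular and 4.4 and 4.23 in ischemic libraries without treatment (0.02 ± 0.10, adjusted p = 0.85) and at 4.70 and 4.71 in regular and 5.02 and 5.01 in ischemic libraries with DMSO (0.31 ± 0.08, adjusted p = 0.0031). Without strand, reads of *IRF1* and its antisense gene *IRF1-AS1*, which covers 22.9% of its exon bases, cannot be told apart. Other annotated genes cover 43.2% of the exon bases of *RIGI* and 27.2% of those of *IRF9*, and 89.6% and 32.2% of the 31-base words in their longest transcripts occur in transcripts of other genes. All of the share of *RIGI* and most of that of *IRF9* (26.6%) lay in 1 other gene each. These shares come from the GENCODE annotation, and whether the authors' gene list held the same overlapping genes was not checked. The values of *RIGI* and *IRF9* are uncertain for this reason, wherever they are given, by an amount that was not tested.

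*ISG15* encodes a ubiquitin-like modifier that is joined to other proteins. It was at 1.93 and 2.01 log2 CPM in regular and 0.54 and 1.11 in ischemic untreated libraries (-1.14 ± 0.23, adjusted p = 0.00072), and without ischemic untreated replicate 1 the difference was -0.86, below the 2-fold threshold. With DMSO it was at 2.47 and 1.88 in regular and 1.5 and 1.77 in ischemic libraries (-0.54 ± 0.22, adjusted p = 0.042). *UBE2L6*, the enzyme that carries ISG15 to its ligases, differed by 0.20 and -0.04, with adjusted p of 0.15 and 0.78. *PARP9* and *DTX3L* encode partners in 1 complex and are transcribed in opposite directions on chromosome 3. Their RefSeq start sites are 446 bases apart, each inside the other gene, and 139 of their exon bases overlap. *PARP9* was lower in the ischemic condition, with log2 differences of -0.60 ± 0.14 (adjusted p = 0.0023) untreated and -0.70 ± 0.10 (adjusted p = 9.2e-06) with DMSO, and *DTX3L* was higher, by 0.92 ± 0.10 (adjusted p = 3.0e-06) untreated and 0.31 ± 0.08 (adjusted p = 0.0017) with DMSO. The libraries did not mark strand, and reads in the overlap cannot be assigned to either gene. *PARP14*, which also transfers ADP-ribose, differed by 0.81 and 0.31, and *SP100*, a protein of PML nuclear bodies, by 0.97 and 0.92, all of these at an adjusted p under 0.05.

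The membrane proteins and the remaining interferon-inducible genes had no call. The IFITM proteins stop viruses from fusing with the cell, and *IFITM1* was the one that moved most, by 0.60 ± 0.24 (adjusted p = 0.043) untreated and 0.55 ± 0.20 (adjusted p = 0.022) with DMSO. *IFITM2* and *IFITM3* lay between -0.03 and 0.17 in both experiments. Their values are uncertain, since 42.6%, 17.0% and 38.9% of the 31-base words in the longest transcripts of *IFITM1*, *IFITM2* and *IFITM3* occur in transcripts of other genes. *BST2*, which tethers budding virus, differed by 0.20 with DMSO, and its libraries overlapped. *IFI6*, *IFI35*, *IFI44* and, in experiment 2, *IFI44L* lay between -0.52 and 0.26.

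**Figure D2:**
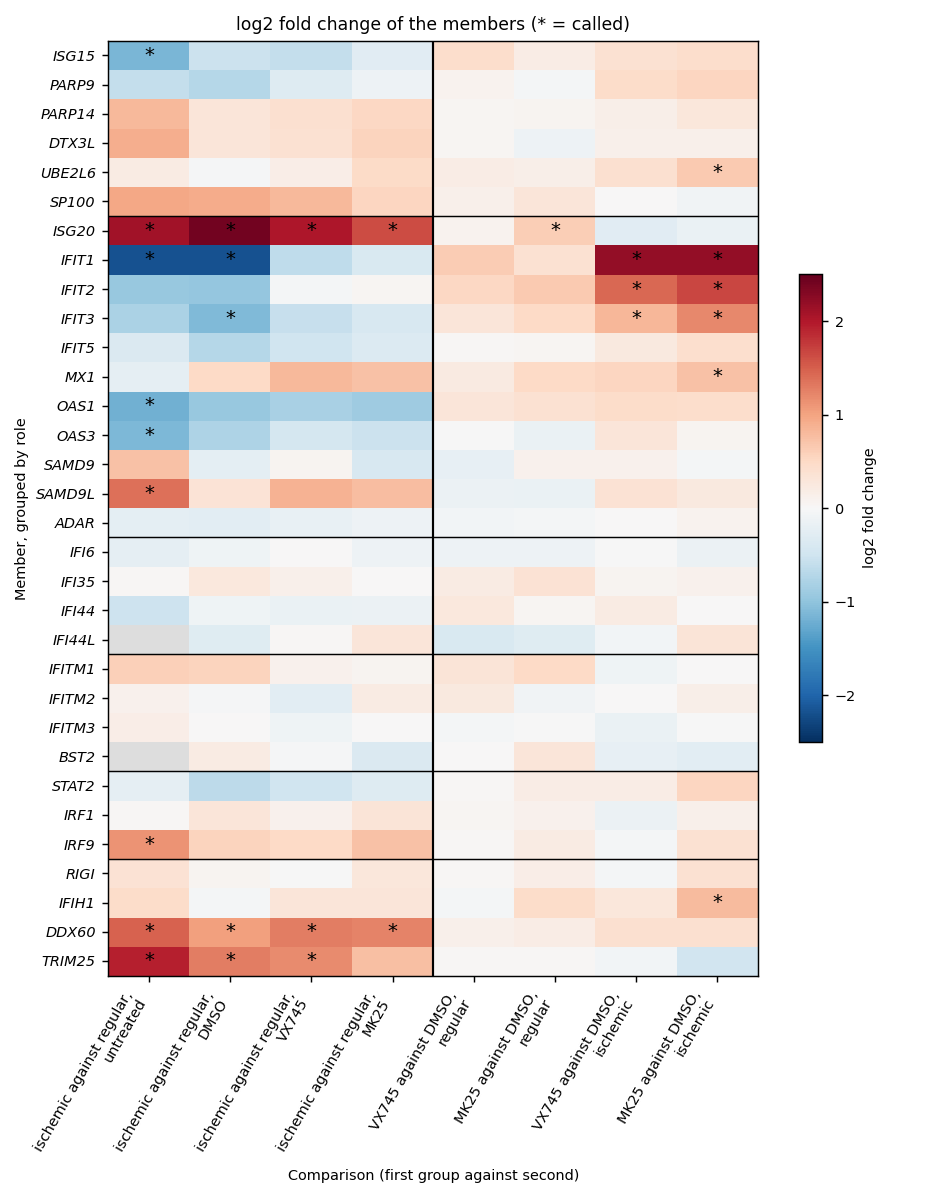
Log2 fold change of each member with a value (rows, grouped by role) in the 4 comparisons of the ischemic with the regular condition and the 4 comparisons of an inhibitor with DMSO (columns). Red is higher in the first group and blue is lower, grey marks no value, and an asterisk marks a called member. The *IFIT1* row is blue in the first 2 columns and red in the last 2, and the *ISG20* and *DDX60* rows are red in all 4 culture columns. The DMSO culture column and the last 2 columns share the ischemic DMSO libraries.

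The next comparison asked what each inhibitor did to these genes under the ischemic condition, with a fold of at least 1.5 for a call. With VX745, 3 of 32 members were higher than with DMSO (4.35% of all genes were) and 0 lower (0.906%). They were *IFIT1*, *IFIT2* and *IFIT3*. With no threshold on size, 8 were higher and 0 lower, beside 14% and 14.9% of all genes. With MK25, 6 of 32 were higher (7.02%) and 0 lower (2.65%). These were the same IFIT genes with *IFIH1*, *MX1* and *UBE2L6*. At any size, 14 were higher and 1 lower (*TRIM25*), beside 19.8% and 22% of all genes. Both inhibitors were compared with the same DMSO libraries, so the comparisons are not independent. The same ischemic DMSO libraries also enter the comparison of the conditions with DMSO and both interactions below. A fall with DMSO, a rise with each inhibitor and an interaction of the same gene are therefore not separate results. Only the comparison of the conditions in experiment 1 and those within an inhibitor rest on other libraries. The member medians were 0.13 for VX745 and 0.27 for MK25, and those of all genes were within 0.01 of 0. Of all called genes, 82.8% were higher with VX745 and 72.6% with MK25, and these shares were 62.6% and 56.4% after quantile normalization and 93.6% and 88.2% after scaling to total reads. The median of all genes was 0.12 with VX745 and 0.13 with MK25 after scaling to total reads. Under each of these, no member was called lower with either inhibitor.

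*IFIT1* was at 0.97 and 1.37 log2 CPM in ischemic VX745 libraries and at 1.30 and 1.06 in ischemic MK25 libraries, beside -1.33 and -0.70 with DMSO. Every treated library was above both DMSO libraries, and the log2 fold changes were 2.19 ± 0.26 (adjusted p = 1.2e-05) with VX745 and 2.20 ± 0.26 (adjusted p = 4.4e-06) with MK25. The regular DMSO libraries were at 1.14 and 1.2, inside the range of the 4 treated ischemic libraries. *IFIT2* was at 1.46 and 1.83 with VX745 and 1.77 and 1.96 with MK25, beside -0.18 and 0.59 with DMSO (1.44 ± 0.26, adjusted p = 0.00071 with VX745 and 1.66 ± 0.26, adjusted p = 9.9e-05 with MK25). *IFIT3* was at 2.35 and 2.39 with VX745 and 2.65 and 2.83 with MK25, beside 1.37 and 1.69 (0.83 ± 0.15, adjusted p = 0.00048 with VX745 and 1.2 ± 0.15, adjusted p = 6.5e-06 with MK25). For all 3 genes the treated and DMSO libraries did not overlap, but neither did those of *EGFR* with MK25, which differed by 0.03 (adjusted p = 0.73). *IFIT5* differed by 0.24 ± 0.09 (adjusted p = 0.064) with VX745 and 0.41 ± 0.09 (adjusted p = 0.0018) with MK25, in the same direction and below the 1.5-fold threshold.

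**Figure D3:**
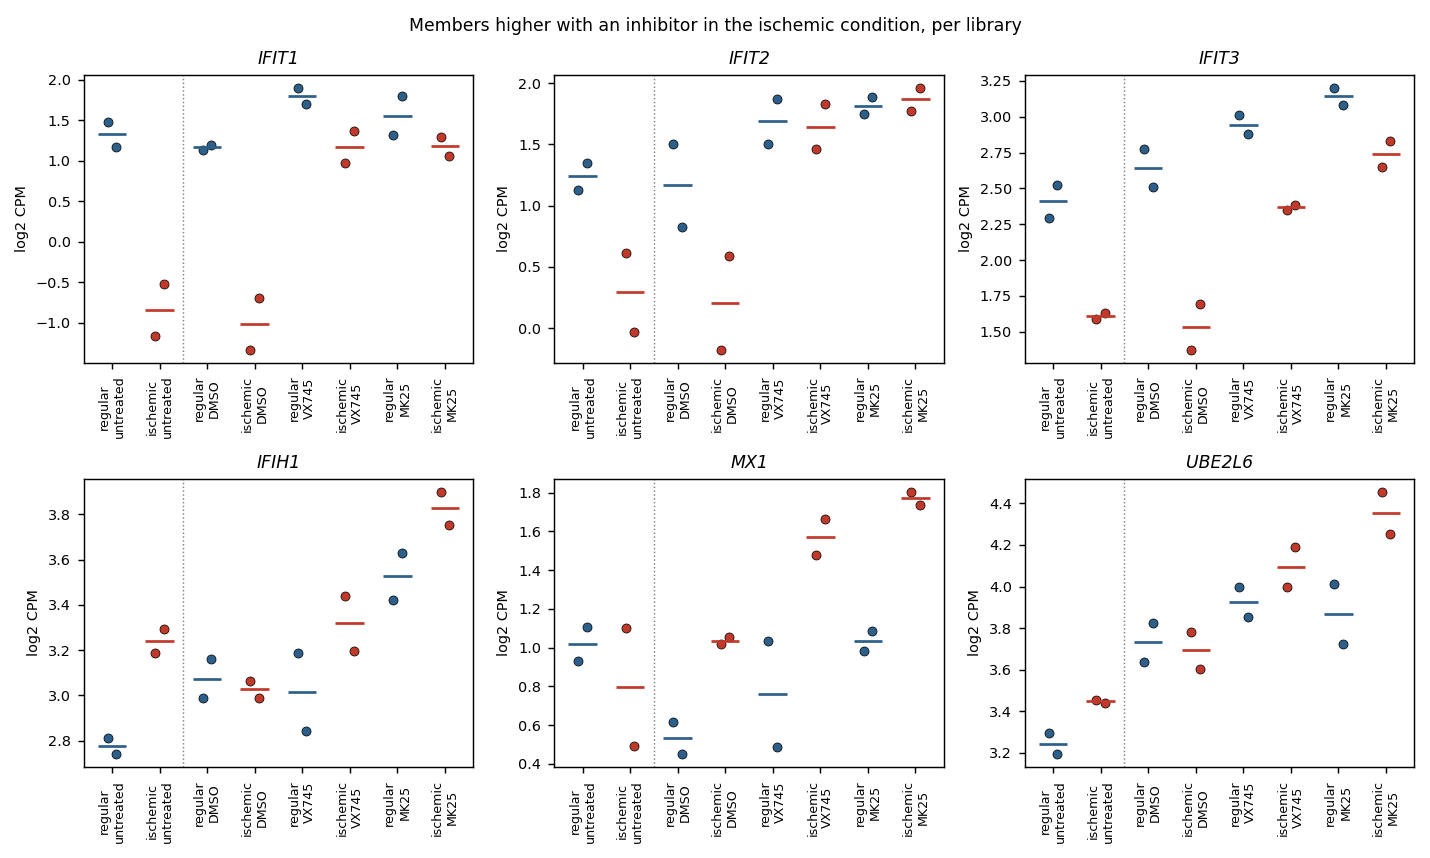
Level in log2 CPM of the 6 members called higher with an inhibitor under the ischemic condition, in each of the 16 libraries. Points are libraries, short lines are group means, blue is the regular and red the ischemic condition, and the dotted line separates the experiments, whose values were normalized separately. For *IFIT1*, the ischemic untreated and ischemic DMSO libraries lie below 0 and every other library lies at 0.97 or more.

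*IFIH1* was at 3.44 and 3.20 log2 CPM with VX745 and 3.90 and 3.75 with MK25, beside 3.07 and 2.99 with DMSO, a difference of 0.29 ± 0.13 (adjusted p = 0.11) with VX745 and 0.80 ± 0.13 (adjusted p = 0.00014) with MK25. *MX1* was at 1.48 and 1.66 with VX745, 1.80 and 1.74 with MK25 and 1.02 and 1.06 with DMSO, a difference of 0.53 ± 0.22 (adjusted p = 0.073) with VX745 and 0.73 ± 0.22 (adjusted p = 0.012) with MK25. The call of *MX1* with MK25 was lost without ischemic DMSO replicate 1 (0.71, adjusted p = 0.056), without ischemic MK25 replicate 1 (0.70, adjusted p = 0.072) and after quantile normalization (0.52, adjusted p = 0.074). *UBE2L6* was at 4.00 and 4.19 with VX745, 4.46 and 4.25 with MK25 and 3.78 and 3.60 with DMSO, a difference of 0.40 ± 0.12 (adjusted p = 0.016) with VX745 and 0.66 ± 0.12 (adjusted p = 0.00027) with MK25. Its change with MK25 was below 1.5-fold without ischemic DMSO replicate 2 (0.57) or ischemic MK25 replicate 1 (0.56).

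Members that had been higher in the ischemic condition did not fall by 1.5-fold with either inhibitor. *ISG20* was at 4.39 and 4.45 log2 CPM with VX745 and 4.50 and 4.60 with MK25, beside 4.71 and 4.71 with DMSO (-0.29 ± 0.16, adjusted p = 0.18 with VX745 and -0.16 ± 0.16, adjusted p = 0.43 with MK25). *TRIM25* was at 8.30 and 8.27 with VX745, 7.90 and 7.84 with MK25 and 8.34 and 8.36 with DMSO (-0.07 ± 0.05, adjusted p = 0.37 with VX745 and -0.48 ± 0.05, adjusted p = 2.6e-06 with MK25). The MK25 libraries of *TRIM25* were both below the DMSO libraries. *DDX60* was at 4.11 and 4.12 with VX745, 4.01 and 4.24 with MK25 and 3.73 and 3.71 with DMSO, and was higher again, below the 1.5-fold threshold, by 0.39 ± 0.11 (adjusted p = 0.011) with VX745 and 0.40 ± 0.11 (adjusted p = 0.0068) with MK25. *IRF9* was at 4.53 and 4.66 with VX745, 4.98 and 5.06 with MK25 and 4.65 and 4.62 with DMSO (-0.04 ± 0.08, adjusted p = 0.72 with VX745 and 0.38 ± 0.08, adjusted p = 0.001 with MK25).

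The other members whose levels are given changed by less than 1.5-fold with either inhibitor. *STAT2* was at 5.06 and 4.92 log2 CPM with VX745 and 5.42 and 5.23 with MK25, beside 4.82 and 4.77 with DMSO (0.19 ± 0.08, adjusted p = 0.098 with VX745 and 0.53 ± 0.08, adjusted p = 9.7e-05 with MK25). *OAS1* was at 1.83 and 1.98 with VX745, 1.65 and 2.13 with MK25 and 1.40 and 1.5 with DMSO (0.45 ± 0.16, adjusted p = 0.045 with VX745 and 0.44 ± 0.16, adjusted p = 0.037 with MK25). *OAS3* was at 5.51 and 5.52 with VX745, 5.34 and 5.22 with MK25 and 5.18 and 5.24 with DMSO, and differed by 0.31 ± 0.06 (adjusted p = 0.0022) with VX745 and by 0.07 ± 0.06 (adjusted p = 0.42) with MK25. The VX745 libraries of *OAS3* lay above both DMSO libraries, and the MK25 libraries overlapped them. *PARP9* differed by 0.46 ± 0.10 (adjusted p = 0.0029) with VX745 and 0.54 ± 0.10 (adjusted p = 0.00051) with MK25. *ISG15* was at 1.90 and 2.14 with VX745, 2.07 and 2.09 with MK25 and 1.5 and 1.77 with DMSO, a difference of 0.39 ± 0.22 (adjusted p = 0.21) with VX745 and 0.44 ± 0.22 (adjusted p = 0.12) with MK25 that did not pass the test. *RIGI* was at 3.59 and 3.48 with VX745, 3.89 and 4.04 with MK25 and 3.62 and 3.55 with DMSO (-0.06 ± 0.11, adjusted p = 0.73 with VX745 and 0.38 ± 0.11, adjusted p = 0.0093 with MK25), and *IRF1* at 4.89 and 4.84 with VX745, 5.28 and 5.00 with MK25 and 5.02 and 5.01 with DMSO (-0.15 ± 0.08, adjusted p = 0.2 with VX745 and 0.13 ± 0.08, adjusted p = 0.22 with MK25). The transcription factors and *RIGI* thus had no difference with VX745 that passed the test. *SAMD9L* was at 4.25 and 4.24 with VX745, 3.95 and 4.31 with MK25 and 3.97 and 3.79 with DMSO, a difference of 0.36 ± 0.14 (adjusted p = 0.068) with VX745 and 0.25 ± 0.14 (adjusted p = 0.18) with MK25. The 4 membrane members lay between -0.27 and 0.14 with either inhibitor, and *IFI6*, *IFI35*, *IFI44* and *IFI44L* between -0.14 and 0.32, none with an adjusted p under 0.05.

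The same comparisons were made under the regular condition, where VX745 changed few genes of any kind. With VX745, 0 of 32 members were higher (0.0642% of all genes) and 0 lower (0.0357%). With no threshold on size in the limma test, 0 were higher and 0 lower as well, beside 0.178% and 0.157% of all genes. An unadjusted p under 0.05 was found for 2 members, and voom with limma also called 0. With MK25, 1 of 32 was higher (1.88%) and 0 lower (0.606%). At any size, 5 were higher (*SP100*, *IFI35*, *IFIH1*, *IFIT3* and *ISG20*) and 0 lower, beside 7% and 5.21% of all genes. The called member was *ISG20*, at 3.25 and 2.59 log2 CPM beside 2.28 and 2.34 with DMSO (0.61 ± 0.16, adjusted p = 0.016), and it was lost without regular MK25 replicate 1, when the difference was 0.28 (adjusted p = 0.23). It was also lost without regular DMSO replicate 1 (adjusted p = 0.063) or 2 (adjusted p = 0.067). *IFIT1* was at 1.91 and 1.71 with VX745 and 1.32 and 1.80 with MK25, beside 1.14 and 1.2, a difference of 0.64 ± 0.26 (adjusted p = 0.26) with VX745 and 0.39 ± 0.26 (adjusted p = 0.34) with MK25. *IFIT2* was at 1.5 and 1.87 with VX745 and 1.75 and 1.89 with MK25, beside 1.5 and 0.82 (0.52 ± 0.26, adjusted p = 0.37 with VX745 and 0.65 ± 0.26, adjusted p = 0.12 with MK25). *IFIT3* was at 3.01 and 2.88 with VX745 and 3.20 and 3.08 with MK25, beside 2.77 and 2.51 (0.30 ± 0.15, adjusted p = 0.35 with VX745 and 0.50 ± 0.15, adjusted p = 0.032 with MK25).

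**Figure D4:**
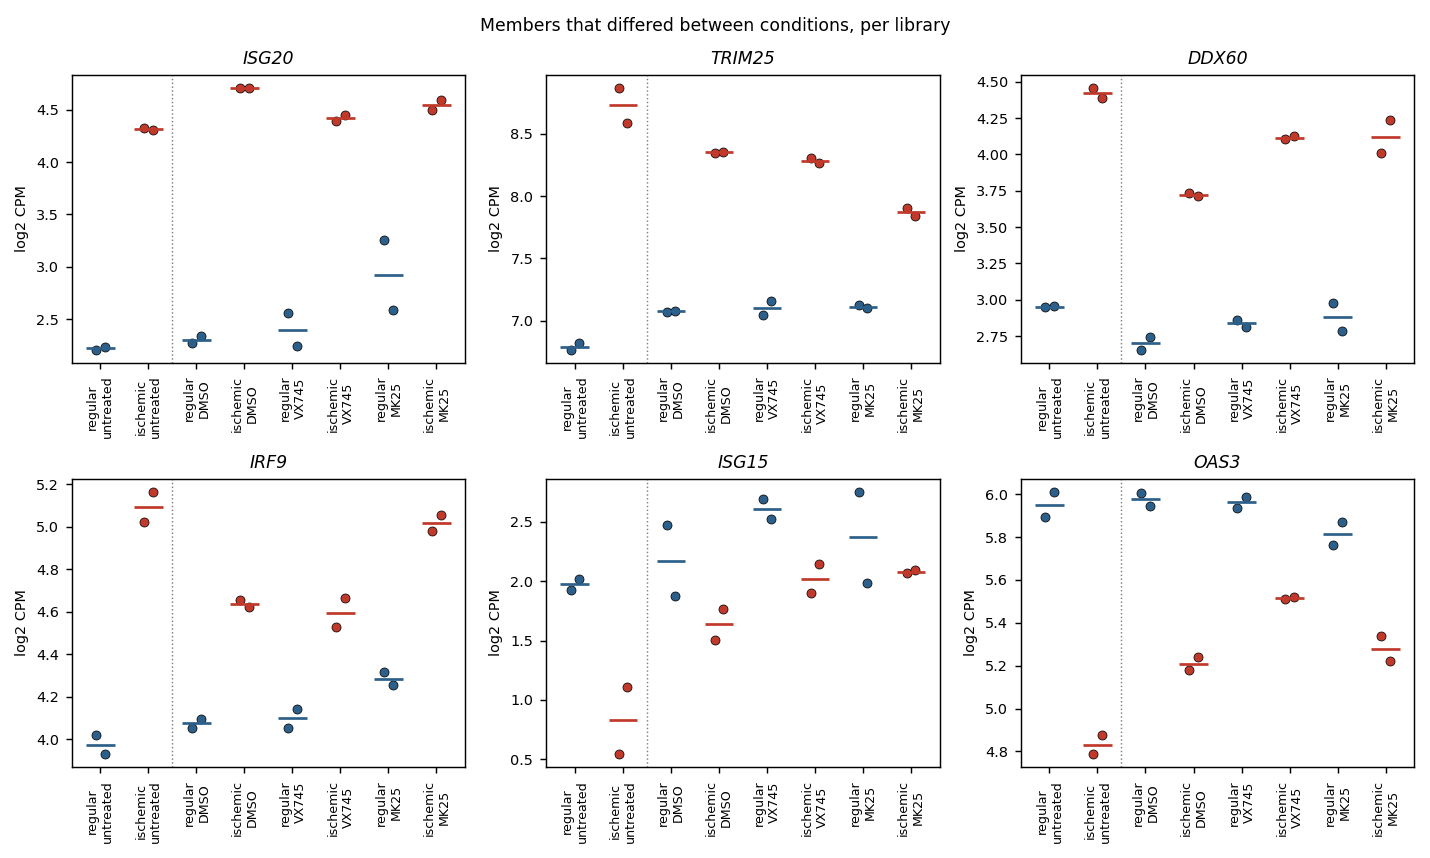
Level in log2 CPM of 6 members that differed between conditions, in each of the 16 libraries. Points are libraries, short lines are group means, blue is the regular and red the ischemic condition, and the dotted line separates the experiments. *ISG20*, *TRIM25*, *DDX60* and *IRF9* are higher in every ischemic library than in any regular library of the same experiment, *OAS3* is lower in every one, and the *ISG15* libraries of experiment 2 overlap.

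Whether an inhibitor acted differently in the ischemic and the regular condition was tested by the interaction, the difference between its effects in both conditions, called at any size. For VX745, 2 of 32 members passed (11.8% of all genes did). *IFIT1* had an interaction of 1.55 ± 0.36 (adjusted p = 0.011), and *OAS3* one of 0.32 ± 0.09 (adjusted p = 0.032). *IFIT1* missed the threshold without ischemic DMSO replicate 1 (1.23, adjusted p = 0.054) or ischemic VX745 replicate 2 (1.35, adjusted p = 0.063). *OAS3* missed it when any 1 of the 8 libraries was left out, with adjusted p from 0.052 to 0.12. For MK25, 9 of 32 members passed (24.4% of all genes did), 6 with a more positive effect under ischemia and 3 with a more negative one. *IFIT1* (1.81 ± 0.36, adjusted p = 0.0017), *PARP9* (0.59 ± 0.14, adjusted p = 0.0072) and *TRIM25* (-0.52 ± 0.08, adjusted p = 0.00013) stayed past the threshold in all of the alternatives run. The other 6 were each lost when at least 1 library was left out. *IFIT3* (0.70 ± 0.21, adjusted p = 0.019) had an adjusted p of up to 0.089 when 1 library was left out, reached without ischemic DMSO replicate 1, and *UBE2L6* (0.52 ± 0.17, adjusted p = 0.029) of up to 0.13, reached without ischemic MK25 replicate 1. *STAT2* (0.35 ± 0.12, adjusted p = 0.041) had one of up to 0.19, reached without regular MK25 replicate 1, and *IFIT5* (0.36 ± 0.13, adjusted p = 0.04998) of up to 0.19, reached without ischemic DMSO replicate 1. *SP100* (-0.38 ± 0.10, adjusted p = 0.012) had one of up to 0.072, reached without ischemic DMSO replicate 1. *ISG20* (-0.78 ± 0.22, adjusted p = 0.017) was at -0.44 (adjusted p = 0.084) without regular MK25 replicate 1. With scaling to total reads the median interaction of all genes was 0.12 for VX745 and 0.13 for MK25, and 4 and 13 members then passed. Of all 14024 genes, 1699 then passed with a more positive and 346 with a more negative effect of VX745 under ischemia, beside 811 and 842 without this scaling. These counts were 2768 and 1052 for MK25, beside 1468 and 1956.

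The ischemic response was also read within each inhibitor, with the 2-fold threshold. With VX745, 3 of 32 members were higher (9.28% of all genes) and 0 lower (5.21%). With MK25, 2 were higher (8.56%) and 0 lower (5.34%). With no threshold on size, 9 were higher and 9 lower with VX745, beside 34% and 32.6% of all genes, and 12 were higher and 6 lower with MK25, beside 33.5% and 33.7%. *IFIT1*, which differed by -2.19 between conditions with DMSO, differed by -0.64 ± 0.26 (adjusted p = 0.036) with VX745 and by -0.38 ± 0.26 (adjusted p = 0.2) with MK25. *IFIT3* differed by -1.11 with DMSO, -0.57 ± 0.15 (adjusted p = 0.0021) with VX745 and -0.40 ± 0.15 (adjusted p = 0.021) with MK25. *IFIT2* differed by -0.96, -0.04 ± 0.26 (adjusted p = 0.89) with VX745 and 0.05 ± 0.26 (adjusted p = 0.88) with MK25, but its interaction did not pass (0.92 ± 0.37, adjusted p = 0.12 with VX745 and 1.01 ± 0.37, adjusted p = 0.058 with MK25). *ISG20* stayed higher, by 2.02 ± 0.16 (adjusted p = 4.0e-09) with VX745 and 1.63 ± 0.16 (adjusted p = 6.7e-08) with MK25, and so did *DDX60*, by 1.28 ± 0.11 (adjusted p = 1.2e-08) with VX745 and 1.24 ± 0.11 (adjusted p = 1.9e-08) with MK25. *TRIM25* differed by 1.18 ± 0.05 (adjusted p = 3.0e-12) with VX745 and by 0.76 ± 0.05 (adjusted p = 1.2e-09) with MK25. *OAS1* stayed lower, with -0.80 ± 0.16 (adjusted p = 0.0003) with VX745 and -0.88 ± 0.16 (adjusted p = 0.00013) with MK25.

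**Figure D5:**
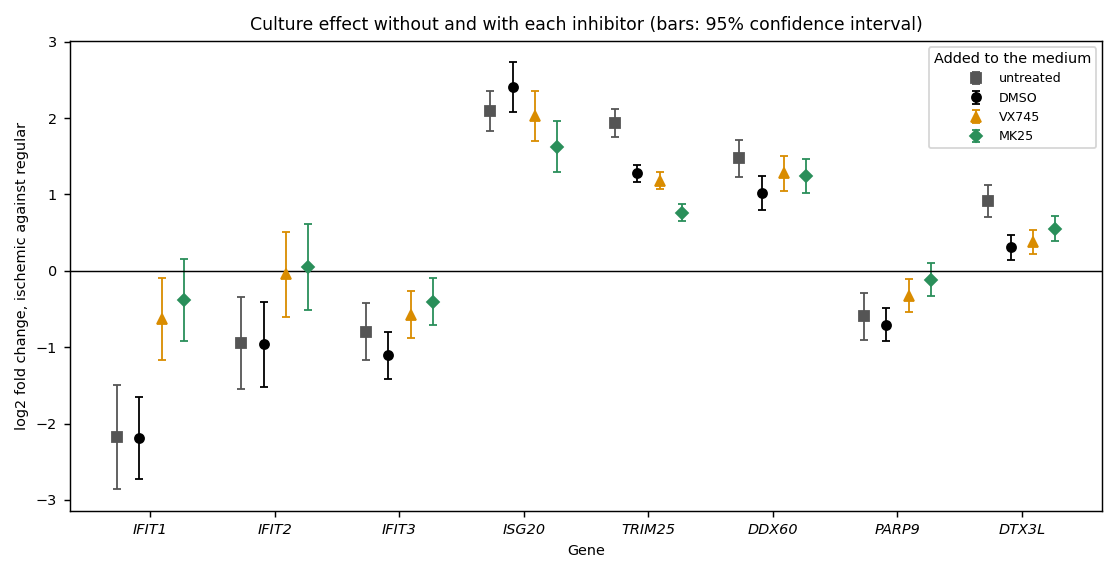
Log2 fold change of ischemic over regular libraries for 8 members, with nothing added (experiment 1) and with DMSO, VX745 or MK25 (experiment 2). Points are fitted values and bars are 95% confidence intervals from limma. The interval of *IFIT1* ends at -1.49 for untreated and -1.65 for DMSO-treated cells and includes 0 with MK25, and the intervals of *ISG20*, *TRIM25* and *DDX60* lie above 0 in all 4 cases.

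The inhibitors were also compared with each other, at doses that the labels do not give. The study's methods list a higher concentration for MK25 than for VX745, without naming the sequenced libraries. Under the ischemic condition, 0 of 32 members differed between MK25 and VX745 by 1.5-fold or more (3.96% of all genes did). Without that threshold 7 differed in the limma test, beside 18.4% of all genes, and 10 had an unadjusted p under 0.05 (voom with limma also called 0 at the 1.5-fold threshold). Of these 7, *IFIH1* (0.51 ± 0.13, adjusted p = 0.012), *RIGI* (0.43 ± 0.11, adjusted p = 0.0083), *IRF9* (0.42 ± 0.08, adjusted p = 0.00099), *STAT2* (0.34 ± 0.08, adjusted p = 0.0086) and *IRF1* (0.28 ± 0.08, adjusted p = 0.026) were higher with MK25. *TRIM25* (-0.41 ± 0.05, adjusted p = 2.5e-05) and *OAS3* (-0.24 ± 0.06, adjusted p = 0.016) were lower with MK25. *IFIT1* differed by 0.01, with a 95% confidence interval from -0.53 to 0.55, *IFIT2* by 0.22 (from -0.34 to 0.78) and *IFIT3* by 0.37 (from 0.06 to 0.67). The intervals of *IFIT1* and *IFIT2* include 0, and that of *IFIT3* does not, though its adjusted p was 0.09. Under the regular condition 0 members differed by 1.5-fold (1.46%), and without that threshold 1 did, *IFIH1* (0.51 ± 0.13, adjusted p = 0.028), beside 5.39% of all genes. An unadjusted p under 0.05 was found for 7 members, and voom with limma called 0 at the 1.5-fold threshold.

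The genes around the members were read from lists chosen by function. Of all genes, 11.3% were called higher and 9.1% lower in the ischemic condition untreated, and 9.03% and 8.11% with DMSO. Under ischemia 4.35% were called higher and 0.906% lower with VX745, and 7.02% and 2.65% with MK25. Of 11 receptor and JAK-STAT genes, all with values, 0 were higher and, near the share of all genes, 1 lower in the ischemic condition in each experiment. This was *IFNAR2*, a chain of the type I interferon receptor, with -1.15 ± 0.10 (adjusted p = 6.1e-07) untreated and -1.01 ± 0.08 (adjusted p = 4.9e-09) with DMSO. With an inhibitor under ischemia, *IFNLR1*, the type III interferon receptor chain, was higher by 0.90 ± 0.22 (adjusted p = 0.0059) with VX745 and 1.15 ± 0.22 (adjusted p = 0.00057) with MK25, and *IL10RB*, its partner chain, by 0.62 ± 0.10 (adjusted p = 0.00011) with MK25. Among 6 measured genes that restrain the pathway, *SOCS3*, an inhibitor of JAK kinases, was the 1 call untreated and with DMSO, lower, with log2 differences of -2.82 ± 0.11 (adjusted p = 6.3e-10) untreated and -1.71 ± 0.10 (adjusted p = 7.4e-11) with DMSO. *USP18*, which removes ISG15 from proteins, was the 1 call with each inhibitor, at 0.60 ± 0.21 (adjusted p = 0.039) with VX745 and 0.62 ± 0.21 (adjusted p = 0.025) with MK25. Among the genes of nucleic acid sensing, *ZBP1*, a sensor of Z-form nucleic acids, was lower in the ischemic condition (-1.25 ± 0.30, adjusted p = 0.0028 untreated and -1.52 ± 0.26, adjusted p = 5.2e-05 with DMSO). With inhibitors under ischemia, *ZBP1* was lower with VX745 (-0.97 ± 0.26, adjusted p = 0.0095), and *DHX58*, a regulator of RIG-I-like sensors, was higher with MK25 (0.73 ± 0.19, adjusted p = 0.0053). All of these lists had 0 calls with either inhibitor in the regular condition, where few genes of any kind were called. Of all genes, 0.0642% were higher and 0.0357% lower there with VX745, and 1.88% and 0.606% with MK25.

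Another 26 measured interferon-stimulated genes outside the 35 were read in the same way. This list too was written with earlier results of these data known, so it is no independent check. In the ischemic condition 1 was higher (11.3% of all genes were) and 2 lower (9.1%) in experiment 1, and 0 were higher (9.03%) and 3 lower (8.11%) in experiment 2 with DMSO. *OASL*, a relative of the OAS enzymes, was lower, with log2 differences of -2.19 ± 0.36 (adjusted p = 0.00014) untreated and -1.94 ± 0.28 (adjusted p = 9.6e-06) with DMSO, and *GBP2*, a guanylate-binding protein, with -1.07 ± 0.16 (adjusted p = 8.5e-05) untreated and -1.0 ± 0.10 (adjusted p = 1.6e-07) with DMSO. *APOL6* was higher by 1.54 ± 0.10 (adjusted p = 5.7e-08) in experiment 1, and *ZC3HAV1*, a protein that binds viral RNA, was lower (-1.17 ± 0.06, adjusted p = 1.5e-11) in experiment 2. Under ischemia 6 of the 26 were higher (4.35% of all genes were) and 0 lower (0.906%) with VX745, and 5 were higher (7.02%) and 0 lower (2.65%) with MK25. With VX745 the 4 of largest fold were *BATF2* (1.41 ± 0.23, adjusted p = 0.00027), *GBP2* (1.31 ± 0.10, adjusted p = 2.7e-07), *OASL* (1.09 ± 0.28, adjusted p = 0.0085) and *CMPK2* (0.97 ± 0.17, adjusted p = 0.00048). With MK25 they were *GBP2* (0.97 ± 0.10, adjusted p = 1.8e-06), *BATF2* (0.92 ± 0.23, adjusted p = 0.0042), *OASL* (0.87 ± 0.28, adjusted p = 0.021) and *TRIM22* (0.61 ± 0.09, adjusted p = 6.6e-05). The list medians were 0.25 and 0.28, beside the medians near 0 of all genes given above. Of 11 antigen presentation genes measured in experiment 2, 0 were higher and 1 lower with VX745 (*HLA-F*, -0.68 ± 0.22, adjusted p = 0.029) and 1 was higher with MK25 (*HLA-E*, 1.41 ± 0.45, adjusted p = 0.019), a gene with 7 and 17 reads in the ischemic DMSO libraries whose reads may be shared with other class I genes.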

How the data were processed

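RNA of 16 libraries of LN229 cells in 8 groups was measured by mRNA sequencing after SMART-Seq amplification and Nextera library preparation, which does not mark strand. Per the labels and the study's methods, the authors aligned reads to GRCh38 with HISAT2, filtered and normalized gene counts with edgeR, and deposited log2 CPM for genes listed by Entrez identifier, separately for each experiment. Versions were not given in the sources used here. The values move in steps of whole reads (100% of values up to 1000 reads, within 0.1 read), from which reads per gene were recovered. The depth of 20122017 to 37562668 reads sets the counting error, and shared steps of amplification are not covered by it.

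Deposited log2 values were compared with limma 3.58.1 (R 4.3.3), with a variance trend, 1 fit for each experiment over all its groups, and Benjamini-Hochberg adjusted p over all its genes. These adjusted p are two-sided. SE is the standard error of the fitted log2 difference. The count test planned for counts was not used, since the values are not counts. A member was called at an adjusted p under 0.05 with a fold of at least 2 between conditions or 1.5 between treatments, and at any size for interactions. Tables were drawn with Python 3.11.15, pandas 2.3.3 and matplotlib 3.10.9. On simulated data, 200 of 13559 genes were given a 2-fold change in the untreated comparison. Of these, 98.5% had an adjusted p under 0.05 and the right sign, with no threshold on size. They were drawn from the better read genes. The share therefore does not tell how often a 2-fold change would be called here, or how often one of a less read member would be found. Replicate libraries differed by more than sampling noise in every group (chi-square per gene from 3.29 to 9.40).

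Members and lists were chosen with earlier results of these data known. Values in every library were given for members called at a log2 change of at least 1 in some comparison and for *STAT2*, *IRF1*, *IRF7*, *IRF9*, *ISG15*, *RIGI* and *IFIH1*, and up to 4 called genes were named from each other list. *MX1* and *UBE2L6* were added after their values were seen. 1 gene of the nucleic acid sensing list is not reported here. Alternatives were run for the members only: other scalings, a filter at a mean of 1 CPM, no variance trend, only the groups compared, voom on the recovered reads, no fold threshold, replicate number as a block and each library left out. Scaling to total reads and a crossed block were added after the data were seen.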

Additional observations from a re-analysis of the deposited data

Results flagged for a closer look

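Each result here is a difference between the effect of an inhibitor in the ischemic and in the regular condition that passed the interaction test (limma, adjusted over all genes of experiment 2). The effect of VX745 was more positive under ischemia for *IFIT1*, by 1.55 on the log2 scale, and for *OAS3*, by 0.32. The effect of MK25 was more positive under ischemia for *IFIT1* (1.81), *IFIT3* (0.70), *PARP9* (0.59), *UBE2L6* (0.52), *IFIT5* (0.36) and *STAT2* (0.35). It was more negative under ischemia for *ISG20* (-0.78), *TRIM25* (-0.52) and *SP100* (-0.38). Their standard errors, adjusted p and the libraries they rest on are given with the interactions above. All of them use the same DMSO libraries as the comparisons with DMSO above, so they are not separate from those results. Of all genes, 11.8% passed this test for VX745 and 24.4% for MK25.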

How the results depend on the processing

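Across the alternatives, 126 of 160 counts of called members stayed within 1.5 times the count reported. Fold changes were followed only for members called in the results above, so calls gained enter the counts alone. Of these 539 fold changes, 475 kept their direction and side of the threshold, 64 kept the direction only and 0 reversed. The 29 with no fold threshold could not change, since that setting reuses the same fit. With no fold threshold, the counts were 23 and 22 for the ischemic condition untreated and with DMSO, 18 with VX745, 18 with MK25, 8 and 15 for VX745 and MK25 under ischemia, 5 for MK25 in the regular condition, and 7 and 1 for MK25 against VX745 under ischemia and in the regular condition. For MK25 in the regular condition the 1 call was lost (0 called) with quantile normalization, with no variance trend and with only the groups compared. The VX745 interaction had 1 member with quantile normalization, 1 with no variance trend and 4 with scaling to total reads, and the MK25 interaction had 5 with no variance trend. With each library left out in turn, counts ran from 9 to 11 for the untreated ischemic condition, 3 to 6 with DMSO, 3 to 4 with VX745 and 2 to 3 with MK25. They ran from 3 to 3 for VX745 and 5 to 7 for MK25 under ischemia, from 0 to 0 and from 0 to 2 in the regular condition, from 0 to 1 for each comparison of MK25 with VX745, from 0 to 2 for the VX745 interaction and from 5 to 9 for the MK25 interaction. The cause of these shifts was not tested, except that leaving out libraries lowers the number of samples. Replicate numbers were not treated as pairs, and the labels do not say whether they are. The correlation of same-numbered deviations was 0.19 in experiment 1, from its regular and ischemic groups alone. It was from -0.10 to 0.18 in experiment 2, where not every one was positive. These values cannot settle whether libraries were paired. With the replicate number as a block all 12 counts stayed within 1.5 times, and the *IFIT5* interaction with MK25 had an adjusted p of 0.052. With crossed numbers for MK25 against DMSO under ischemia 6 members were called. Depth limits *IFIT1*, *IFI44L* and *IFIT2* most, whose lowest libraries held 8, 15 and 19 reads.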
